A study of Mus musculus with 23 samples.

Results

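The ERBB family consists of 4 receptor tyrosine kinases, and all 4 genes, Egfr, Erbb2, Erbb3 and Erbb4, were present among the 3826 genes of the amplicon panel, taken by their symbols. RNA came from 23 mouse mammary carcinomas, 12 treated with abemaciclib and 11 with control vehicle. Abemaciclib, a drug that blocks CDK4 and CDK6, the kinases that drive entry into the cell cycle, was given at 90 mg/kg by gavage each day, and tissue was frozen after dose 12. In both groups tumour formation was switched on with doxycycline when the mice were 6 weeks old, in a model of the HER2 type, and animals with established tumours were randomized so that mean tumour volume was equal. The labels name neither the strain, the transgene nor the promoter that drives it, and whether the Erbb2 amplicon also reads a transgene transcript is not known. Libraries held 2756919 to 4990391 counts in abemaciclib tumours and 3044380 to 4492736 counts in control tumours. The tumours are numbered as in their titles, which do not say whether any came from the same animal, so p-values measure the spread between tumours only. Keratins Krt8 and Krt18, the adhesion molecules Epcam and Cdh1 and the other luminal epithelial markers tested were detected in every tumour, with Epcam at 1150 ± 163 CPM in abemaciclib and 1188 ± 276 CPM in control tumours (SD, n = 12 and 11), where CPM is the usual depth-scaled read count, on library totals adjusted with TMM.

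ERBB receptors sit in the membrane of epithelial cells, bind growth factors of the EGF family outside the cell, pair with each other and phosphorylate each other's tails inside it. EGFR binds EGF, TGF-alpha and HB-EGF. ERBB2, also called HER2 or Neu, has no known soluble ligand and acts as the preferred partner of the others, while ERBB3 and ERBB4 bind neuregulins. ERBB3 has very weak kinase activity and couples the pair to PI3K through its tail. In mammary tumours driven by HER2, the pair of ERBB2 and ERBB3 is known for feeding RAS-MAPK and PI3K-AKT signalling, which raise D-type cyclins, the partners of CDK4 and CDK6.

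The upstream sequences of Egfr and Erbb2 are shown because transcription factors that act on ERBB genes are described further on. They are the 250 bases before the RefSeq start on the plus strand of chromosome 11, in GRCm38.p6, the assembly that mm10 names, at chr11:16751953-16752202 for Egfr and chr11:98412234-98412483 for Erbb2. Capitals mark matches, on either strand, to any of 4 searched motifs.
Egfr: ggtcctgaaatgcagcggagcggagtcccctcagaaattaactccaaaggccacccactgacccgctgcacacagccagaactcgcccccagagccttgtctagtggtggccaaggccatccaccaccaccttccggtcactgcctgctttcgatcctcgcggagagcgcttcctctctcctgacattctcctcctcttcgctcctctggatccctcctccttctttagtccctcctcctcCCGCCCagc
Erbb2: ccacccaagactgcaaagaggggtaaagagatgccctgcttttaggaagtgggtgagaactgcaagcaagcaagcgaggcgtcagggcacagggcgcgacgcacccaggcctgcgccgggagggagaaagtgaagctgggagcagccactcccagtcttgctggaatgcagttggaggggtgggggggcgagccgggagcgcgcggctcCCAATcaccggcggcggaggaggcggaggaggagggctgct
The motifs were the AP-2 motif GCCNNNGGC, the GC box GGGCGG, the CCAAT box and the TATA box TATAAA, and no match overlapped another. Egfr held 1 GC box, 9 to 4 bases before the start and read on the minus strand, and Erbb2 held 1 CCAAT box, 41 to 37 bases before it. Neither window held the AP-2 letters, which occurred in 13.7% of all 32851 RefSeq windows of this length. The GC box occurred in 32.7% of them, the CCAAT box in 33.8% and the TATA box in 12.4%. Among the 2936 windows of tested panel genes the shares were 22.6% for AP-2, 59.4% for the GC box, 34.0% for the CCAAT box and 8.21% for the TATA box. GC content was 60.8% for Egfr and 66.0% for Erbb2. Only these letters within these 250 bases were searched, so sites of another form or place are not covered. No motif for the factor Yy1, described further on, was searched, and Erbb3 had no sequence. The Erbb2 start that GENCODE gives, 98412470, lies inside the Erbb2 window.

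Across all genes, 0 of 2925 tested genes (0%) passed edgeR's quasi-likelihood test at a Benjamini-Hochberg adjusted p under 0.05, while 392 (13.4%) had an unadjusted p under 0.05. DESeq2's Wald test called 60 genes (2.05%) and limma-voom with quality weights 127 (4.34%). None of the 3 ERBB receptors above the filter on low counts was called by edgeR, DESeq2 or limma-voom, and none had an unadjusted p under 0.05 in any of these tests.

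Egfr (chromosome 11, 16752203 to 16918158, mm10) ran from 66.5 CPM through a median of 210.4 to 362 CPM in abemaciclib tumours, against 119 through 184 to 255 CPM in control tumours. Most abemaciclib tumours lay inside the control range, with abemaciclib tumours 5 and 12 above it and abemaciclib tumour 9 below it. That tumour, at 176 reads of Egfr, was well apart from the next lowest abemaciclib tumour at 139 CPM. Abemaciclib tumour 9 also had the smallest library of all 23 tumours, with 2756919 counts. The means were 211 ± 71.6 CPM in abemaciclib and 185 ± 35.9 CPM in control tumours (SD, n = 12 and 11), and the log2 difference by edgeR was 0.19 with an SE of 0.175 (interval -0.17 to 0.55 at 95%; adjusted p = 0.674), with 10 of 12 abemaciclib tumours over the control median. The interval runs from 0.889-fold to 1.46-fold. Without abemaciclib tumour 9 the log2 fold change was 0.28 (p = 0.0492, adjusted p = 0.322 by edgeR), and the SD of log2 CPM in the abemaciclib group was 0.354 in place of 0.597, beside 0.288 in control tumours. In abemaciclib tumour 9 the luminal epithelial score was 0.419 and the fibroblast score 1.10, the highest of both scores in any tumour. Their part in its low Egfr level was not tested.

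Erbb2 (chromosome 11, 98412470 to 98437716), the receptor that names the tumour model, ran from 49.2 CPM through 71.3 to 104 CPM in abemaciclib tumours and from 38.0 through 74.7 to 112 CPM in control tumours. The abemaciclib values lay wholly inside the control range. The highest abemaciclib value belonged to tumour 9, the tumour with the lowest Egfr, and the extremes among control tumours were tumour 7 at 38.0 CPM and tumour 6 at 112 CPM. Erbb2 averaged 70.0 ± 14.6 CPM in abemaciclib and 75.8 ± 20.8 CPM in control tumours, with 205 to 364 and 130 to 438 reads per tumour. By edgeR the log2 difference was -0.12 with an SE of 0.146 (adjusted p = 0.772), and its 95% interval of -0.42 to 0.19 spans 0.750-fold to 1.14-fold. A 2-fold difference in either direction lies outside it. In bulk tumours fewer cells of a type and less RNA per cell cannot be told apart.

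Erbb3 (chromosome 10, 128567523 to 128589652, minus strand), the neuregulin receptor that signals through its partner, ran from 152 CPM through 202 to 393 CPM in abemaciclib tumours, against 161 through 259 to 351 CPM in control tumours. The groups overlapped nearly throughout, with abemaciclib tumour 7 above and abemaciclib tumour 9 below every control tumour. Abemaciclib tumours 1, 5 and 7 formed the upper end of their group at 339, 313 and 393 CPM, and 9 of 12 abemaciclib tumours were below the control median. The means were 232 ± 75.8 CPM in abemaciclib and 254 ± 56.1 CPM in control tumours, and edgeR put the log2 difference at -0.13 with an SE of 0.156 (interval -0.45 to 0.19 at 95%; adjusted p = 0.749). Scaling to library totals moved the median of all tested genes to -0.12, beside 0.0055 with TMM, the trimmed-mean scaling used throughout. On that scale Erbb3 was at -0.28 (p = 0.0303, adjusted p = 0.243) and Erbb2 at -0.23 (adjusted p = 0.342 by edgeR).

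Erbb4 (chromosome 1, 68032186 to 69108059, minus strand), the other neuregulin receptor and the family member linked to milk production in the normal gland, was at or near 0 in every tumour and did not pass the filter on low counts. It had 0 to 2 reads per tumour in the abemaciclib group, with 9 of 12 tumours at 0, and 0 to 3 reads in the control group, with 7 of 11 at 0. Summed over a group this was 4 of 49389203 counts, or 0.0810 CPM of the unscaled totals (exact 95% binomial interval 0.0221 to 0.207), in abemaciclib and 7 of 43256945 counts, or 0.162 CPM (0.0651 to 0.333), in control tumours. These intervals cover counting error only, and amplicon reads without molecular identifiers include PCR copies. A tumour at 0 allows up to 3 reads, which is 0.601 to 1.09 CPM at the depths of the abemaciclib tumours and 0.668 to 0.985 CPM at those of the control tumours. No difference in Erbb4 was detectable with these reads. A low transcript level and an inefficient amplicon cannot be told apart here.

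**Figure D1:**
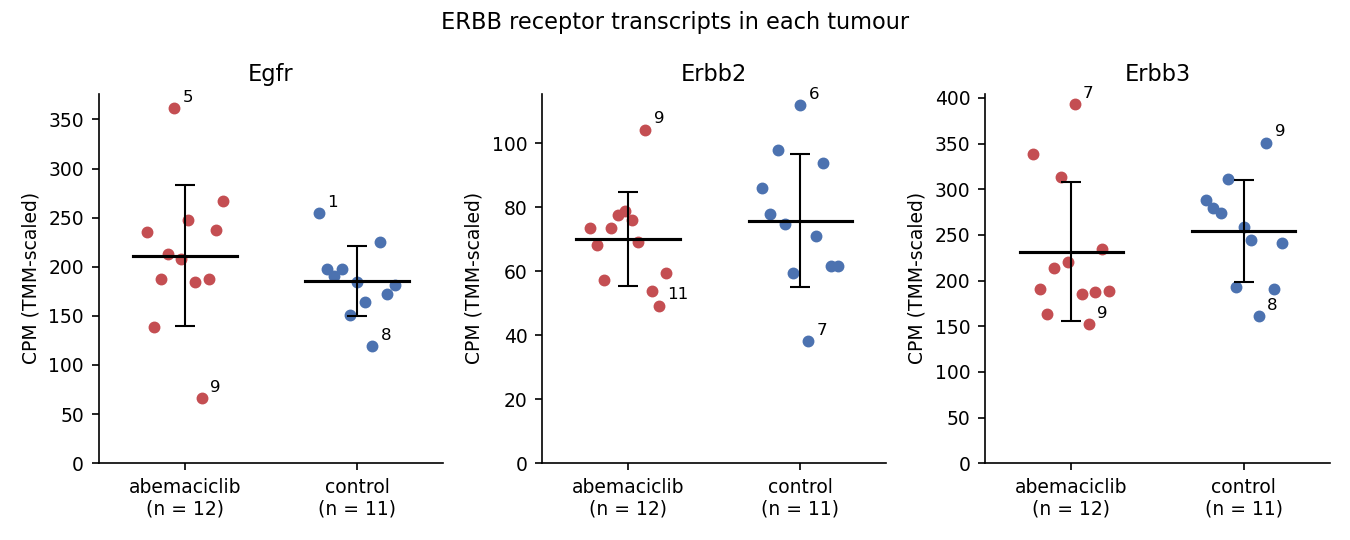
CPM of Egfr, Erbb2 and Erbb3 in each tumour, with 12 abemaciclib tumours left of 11 control tumours in each panel. Points are tumours, bars the mean and SD, and the numbers name the highest and lowest tumours, among them abemaciclib tumour 9 with the lowest Egfr and Erbb3 and the highest Erbb2 of its group.

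The receptors' spread between tumours was set against that of the other panel genes. The SD of log2 CPM within groups was 0.476 for Egfr, 0.362 for Erbb2 and 0.386 for Erbb3, beside a median of 0.367 over all tested genes. Of the tested genes, 68.3% had a smaller SD than Egfr, 48.5% a smaller SD than Erbb2 and 53.8% a smaller SD than Erbb3. The value for Egfr leaned on abemaciclib tumour 9. Its SD of log2 CPM was 0.597 in abemaciclib tumours, 0.354 without that tumour and 0.288 in control tumours. The ranks and the panel median were not recomputed without it.

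The balance between receptors was compared as the log2 ratio of their CPM within each tumour, which does not depend on how libraries are scaled. Each amplicon has its own efficiency, so the ratio shows differences between tumours and not which receptor is more abundant. The Egfr to Erbb3 ratio ran from -1.19 through -0.0032 to 0.51 in abemaciclib tumours and from -0.65 through -0.49 to -0.15 in control tumours. Of 12 abemaciclib tumours, 8 lay above every control tumour, 2 (tumours 7 and 9) lay below every control tumour and 2 lay inside the control range. The means were -0.17 ± 0.462 in abemaciclib and -0.45 ± 0.167 in control tumours (SD, n = 12 and 11), a difference of 0.28 that did not pass (two-sided permutation test, p = 0.0717, adjusted p = 0.215 over 3 ratios, higher than the control median in 9 of 12). Without abemaciclib tumour 9 the difference was 0.37 and passed (adjusted p = 0.0159, permutation test). That tumour had the lowest ratio of all, and the p is not adjusted over the tumours left out in turn. In the 24 other alternatives the difference did not pass.

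The other ratios overlapped more. Egfr to Erbb2 averaged 1.52 ± 0.772 in abemaciclib and 1.31 ± 0.397 in control tumours, a difference of 0.20 (permutation test, adjusted p = 0.707), with 3 of 12 abemaciclib tumours above every control tumour and tumour 9 far below all of them at -0.65. Without that tumour the difference was 0.40 (adjusted p = 0.0393, permutation test). Here too the tumour left out had the lowest ratio, and in the 24 other alternatives the difference did not pass. Erbb2 to Erbb3 averaged -1.68 ± 0.492 in abemaciclib and -1.76 ± 0.416 in control tumours, a difference of 0.074 (permutation test, adjusted p = 0.707). Its sign turned to -0.030 without abemaciclib tumour 9 and to -0.017 without control tumour 7.

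**Figure D2:**
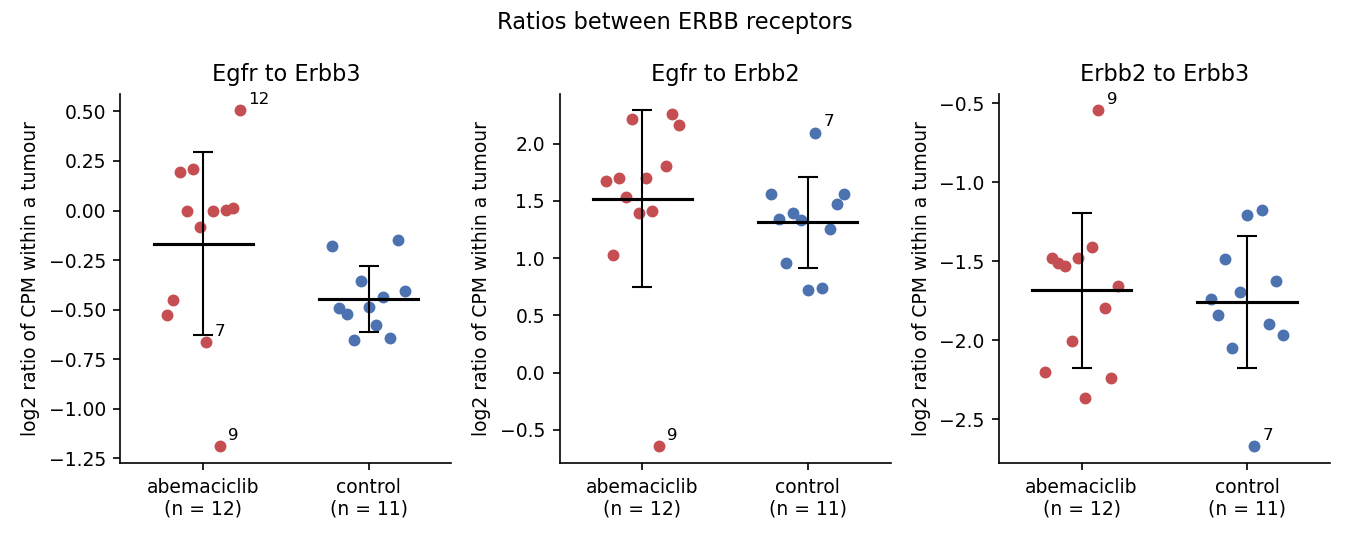
Log2 ratios of CPM between 2 receptors within each tumour, with abemaciclib left of control, points as tumours and bars as mean and SD. In the Egfr to Erbb3 panel 8 of 12 abemaciclib tumours sit above all control tumours, while abemaciclib tumours 7 and 9 sit below them.

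Set against the mean of 10 luminal epithelial genes in the same tumour, no receptor passed a test of the group difference. On this log2 scale Egfr was at -1.75 ± 0.791 in abemaciclib and -1.89 ± 0.212 in control tumours, Erbb2 at -3.27 ± 0.334 in abemaciclib and -3.20 ± 0.333 in control tumours, and Erbb3 at -1.59 ± 0.611 in abemaciclib and -1.44 ± 0.261 in control tumours (SD, n = 12 and 11). The differences were 0.13, -0.070 and -0.14, each with an adjusted p of 0.630 (two-sided permutation tests over 3 receptors). With keratins, Epcam and Cdh1 alone as the basis, the sign for Erbb2 turned to 0.039.

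Egfr and Erbb3 varied together among tumours of the same group. Pearson's r of their log2 CPM was 0.638 in abemaciclib tumours (permutation p = 0.0228, adjusted p = 0.0912, n = 12) and 0.867 in control tumours (permutation p = 5.10e-04, adjusted p = 0.0122, n = 11), adjusted over 24 relations. Spearman's rank coefficient was 0.727 in abemaciclib and 0.909 in control tumours (adjusted permutation p = 0.0476 and 0.00552). Without the 2 tumours farthest from the median Erbb3 level, r was 0.767 in abemaciclib and 0.801 in control tumours, and the control value was then no longer past the threshold (adjusted permutation p = 0.0773). On library totals the control value was 0.757 and lost its call (adjusted permutation p = 0.123).

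Erbb2 did not pass with either of the others. Its r with Egfr was -0.448 in abemaciclib tumours (permutation p = 0.145) and 0.437 in control tumours (permutation p = 0.175). The negative value rested on abemaciclib tumour 9, since r was 0.340 without the 2 tumours farthest from the median Erbb2 level and 0.202 without tumour 9 alone. With Erbb3, r was 0.104 in abemaciclib and 0.423 in control tumours (permutation p = 0.748 and 0.196).

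Erbb3 ran against the cell division genes among abemaciclib tumours. Its r with the score of 16 such genes, among them Mki67, Smc4 and Bub1b, was -0.767 in abemaciclib tumours (permutation p = 0.00354, adjusted p = 0.0418, n = 12), and -0.852 without the 2 farthest tumours, 2 and 10. Abemaciclib tumours 1 and 7, with the highest Erbb3, had the lowest scores, -2.34 and -2.13. In control tumours r was -0.562 (permutation p = 0.0712, adjusted p = 0.171) and -0.198 without the 2 farthest. On library totals the abemaciclib value was -0.624 and lost its call (adjusted permutation p = 0.139). For Egfr, r with the same score was -0.499 in abemaciclib tumours (adjusted permutation p = 0.203) and -0.802 in control tumours (adjusted permutation p = 0.0418), and the control value was -0.299 without control tumours 1 and 8, on which it rested. By rank, the abemaciclib relation passed for Egfr (Spearman's coefficient -0.713, adjusted permutation p = 0.0476) and for Erbb3 (-0.748, adjusted permutation p = 0.0476), and the control relation of Egfr did not (-0.691, adjusted permutation p = 0.0748).

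With luminal epithelial genes all 3 receptors had positive r among control tumours, 0.695 for Egfr, 0.627 for Erbb2 and 0.632 for Erbb3 (adjusted permutation p = 0.0912, 0.122 and 0.122). Without control tumours 3 and 8, the 2 farthest from the median score, r was 0.504 for Egfr, 0.825 for Erbb2 and 0.381 for Erbb3. Among abemaciclib tumours r was -0.538 for Egfr, 0.337 for Erbb2 and -0.428 for Erbb3 (adjusted permutation p = 0.171, 0.380 and 0.280). Whether the groups differ in these relations was not tested. By rank, Erbb2 passed among control tumours (Spearman's coefficient 0.809, adjusted permutation p = 0.0475). With fibroblast and matrix genes, r among abemaciclib tumours was -0.678 for Egfr, 0.497 for Erbb2 and -0.238 for Erbb3 (adjusted permutation p = 0.0912, 0.208 and 0.553), and it lay between -0.402 and 0.0996 among control tumours. By rank, Egfr passed among abemaciclib tumours (Spearman's coefficient -0.720, adjusted permutation p = 0.0476). Abemaciclib tumour 9 had the highest luminal and fibroblast scores and the lowest Egfr. The r of Egfr with these lists were not computed without that tumour.

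**Figure D3:**
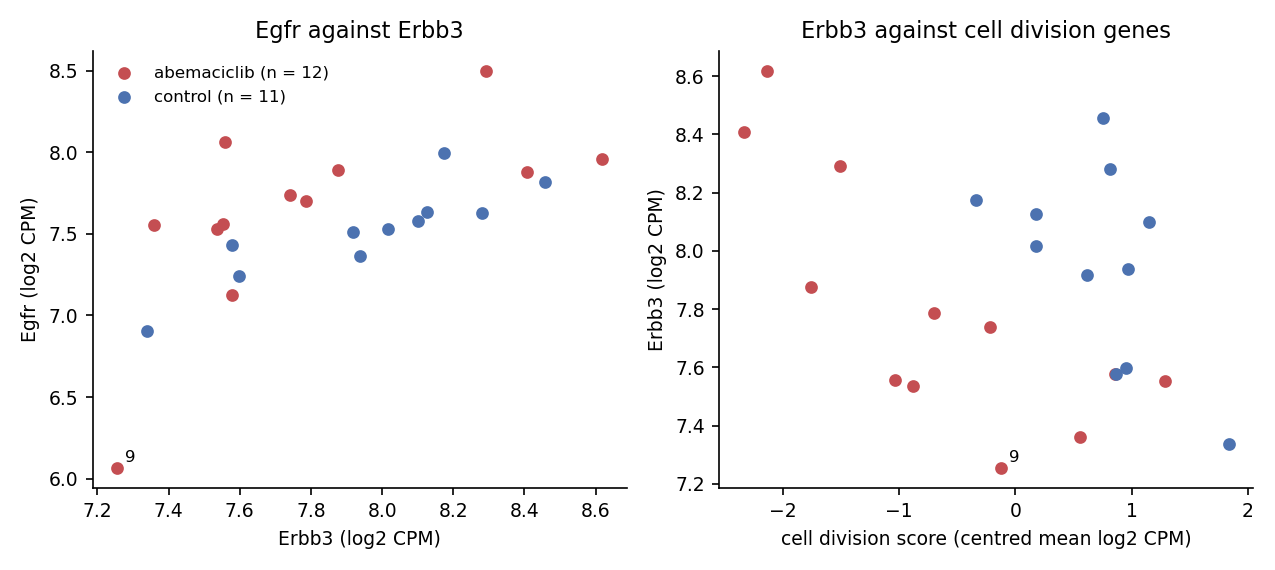
Left, Egfr against Erbb3, both in log2 CPM, and right, Erbb3 in log2 CPM against the cell division score, the centred mean log2 CPM of 16 genes, with 12 abemaciclib and 11 control tumours as points. Egfr and Erbb3 rise together in both groups (r of 0.638 and 0.867), with abemaciclib tumour 9 at the lower left, and Erbb3 runs against the score among abemaciclib tumours (r of -0.767).

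The genes whose levels followed each receptor most closely were taken from all tested genes by Pearson's r over the 23 tumours after subtracting each group's mean. These r are descriptions, the tumours share their libraries and scaling, and no p is given. For Egfr they were Anpep, which encodes aminopeptidase N (r = 0.897), the ubiquitin ligase Rnf167 (0.887), the integrin Itgav (0.870), Irs1, an adaptor of insulin and IGF1 receptors (0.868), and Aldh2, a mitochondrial aldehyde dehydrogenase (0.862). The lowest were Trp53 (-0.879), the chromatin protein gene Hmgb3 (-0.864) and Nfkbie, an inhibitor of NF-kappaB (-0.847). Among abemaciclib tumours r with Egfr was 0.957 for Anpep, 0.893 for Rnf167, 0.920 for Itgav, 0.906 for Irs1 and 0.904 for Aldh2. Among control tumours these r were 0.700, 0.865, 0.662, 0.719 and 0.623 in the same order. Abemaciclib tumour 9, with the lowest Egfr of all tumours, was kept in, and r without it was not computed. For Erbb2 the highest were Dag1, which encodes dystroglycan (0.884), the kinase Map3k3 (0.849), the ciliary transport gene Ift172 (0.841), the BMP receptor Bmpr2 (0.839) and Tmem57 (0.832). The lowest for Erbb2 were Eed, a Polycomb subunit (-0.800), the checkpoint gene Hus1 (-0.792) and the deacetylase Hdac3 (-0.789). For Erbb3 the highest were Adck3 (0.889), Arhgef18 (0.871), the insulin receptor Insr (0.862), the pattern receptor Tlr4 (0.833) and Slc35a1, a sialic acid carrier (0.831), and the lowest were Rassf1 (-0.874), Hnrpd (-0.826) and Kirrel (-0.823). Among 2924 other genes Erbb3 ranked 170th by likeness to Egfr, and Erbb2 ranked 1648th. The top gene for each receptor was the same on library totals, with r of 0.883, 0.854 and 0.803. The lowest end moved more on that scale, with Trp53 at -0.705 (rank 2876) and Hmgb3 at -0.668 (rank 2843) for Egfr and Eed at -0.544 (rank 2791) for Erbb2, while Rassf1 stayed last for Erbb3 at -0.823.

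Of the growth factors that activate these receptors, 4 of 11 listed were on the panel and 3 were tested. Nrg1, the neuregulin that binds ERBB3 and ERBB4 (chromosome 8, 31814551 to 32884029), ran from 4.52 CPM through 17.7 to 59.0 CPM in abemaciclib tumours and from 5.12 through 12.8 to 28.1 CPM in control tumours. The groups overlapped, with abemaciclib tumour 3 highest. Nrg1 averaged 21.3 ± 15.0 CPM in abemaciclib and 13.6 ± 6.04 CPM in control tumours, with a log2 difference of 0.65 and an SE of 0.324 (adjusted p = 0.394 by edgeR), higher than the control median in 9 of 12. The value was 0.20 without abemaciclib tumours 3 and 10, known from earlier results of these data to stand apart.

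Hbegf, which encodes the EGFR ligand HB-EGF, ran from 9.22 CPM through 37.5 to 65.5 CPM in abemaciclib tumours and from 18.7 through 28.9 to 38.1 CPM in control tumours. Abemaciclib tumours spread to both sides, 6 above and 3 below every control tumour, and edgeR gave a log2 difference of 0.34 with an SE of 0.263 (adjusted p = 0.618), or 0.10 without abemaciclib tumours 3 and 10. Tgfa, the EGFR ligand TGF-alpha (chromosome 6, 86195223 to 86275719), ran from 5.80 CPM through 19.7 to 73.2 CPM in abemaciclib tumours and from 14.2 through 32.0 to 60.8 CPM in control tumours. It too spread beyond the control range, with 2 abemaciclib tumours above and 3 below it, and edgeR gave -0.24 with an SE of 0.339 (adjusted p = 0.804). Tgfa was at -0.47 without abemaciclib tumour 3, at -0.12 without control tumour 8 and at -0.78 without abemaciclib tumours 3 and 10. Egf itself was below the filter, at 1 to 14 reads in abemaciclib and 1 to 10 reads in control tumours. With no filter it was at a log2 fold change of 0.73 (p = 0.0491, adjusted p = 0.372 by edgeR).

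Ligand levels had negative r with Erbb3, most of all among abemaciclib tumours. After subtracting group means, r with Erbb3 was -0.774 for Tgfa, which ranked 2910th of 2924 genes, -0.639 for Hbegf and -0.505 for Nrg1. For Tgfa it was -0.801 among abemaciclib and -0.732 among control tumours, for Hbegf it was -0.785 among abemaciclib and -0.228 among control tumours, and for Nrg1 it was -0.764 among abemaciclib and 0.055 among control tumours. On library totals the 3 values over all tumours were -0.602, -0.538 and -0.408. With Egfr they were -0.498 for Tgfa, -0.502 for Hbegf and -0.198 for Nrg1, and with Erbb2 they lay between -0.213 and 0.017. On library totals the values with Egfr were -0.253 for Tgfa, -0.315 for Hbegf and -0.035 for Nrg1, and those with Erbb2 were all positive, at 0.118, 0.274 and 0.096.

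The rest of the pathway was read from lists of known pathway members. Together 72 tested genes of 7 lists, from ligands to output genes, held 0 called by edgeR, against 0% over all genes, and 0 at an unadjusted p under 0.05, against 13.4% over all genes. Of these, 36 had positive and 36 negative values, and the median was 0.00067 on the log2 scale, beside 0.0055 for the whole tested panel. DESeq2 and limma-voom called 0 of the 72.

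All 4 tested proteases that release ERBB ligands had positive values with a median of 0.18, Adam12 at 0.60 (SE 0.345), Adam19 at 0.25 (SE 0.173) and Adam17, the main sheddase of TGF-alpha, at 0.11 (SE 0.0874), and none passed (adjusted p = 0.463, 0.565 and 0.626 by edgeR). Adam17 turned to -0.024 on library totals. Adam12 was set by abemaciclib tumour 9 at 283 CPM, against 11.0 to 84.7 CPM in the other 11 abemaciclib tumours and 31.9 to 65.6 CPM in control tumours, and was at 0.16 without it.

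Of 13 tested genes that restrain or turn over ERBB receptors, 6 were positive and 7 negative, with a median of -0.032. Cblb, a ubiquitin ligase that tags activated receptors, was at 0.22 (SE 0.116), with 12 of 12 abemaciclib tumours over the control median, the phosphatase gene Ptpn1 at 0.22 (SE 0.155) and Socs4 at -0.26 (SE 0.184), with adjusted p from 0.435 to 0.571 by edgeR. How many of all tested genes had every abemaciclib tumour on the same side of the control median was not counted. Errfi1, a feedback inhibitor of EGFR, had 0 or 1 read in every tumour. Adaptors and proximal signalling genes had a median of -0.023, 5 of 12 being positive. The genes with the smallest p were Nck1 at -0.19 (SE 0.152), Plcg1 at 0.17 (SE 0.180) and Ptpn11, which encodes the phosphatase SHP2, at 0.063 (SE 0.0817). Without abemaciclib tumour 9, Plcg1 was at 0.0087 and Ptpn11 at 0.0015. Grb7, an adaptor of ERBB2 that lies beside it on chromosome 11, was at -0.10 (SE 0.193) and had r of -0.086 with Erbb2. Csf3, which also lies near Erbb2, was at -0.00072 (SE 0.335).

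The RAS-MAPK kinases had a median of -0.047 over 9 genes, 4 of them positive, with Map2k2, which encodes the kinase MEK2, at 0.098 (SE 0.112). The PI3K-AKT-mTOR list had a median of 0.045 over 19 genes, with the transcription factor Foxo3 at 0.28 (SE 0.162), the regulatory subunit Pik3r3 at -0.33 (SE 0.194) and Tsc2, a brake on mTOR, at 0.18 (SE 0.113). Among 14 MAPK output genes 11 were negative, with a median of -0.15. The immediate-early factor Egr1 was at -0.36 (SE 0.194), with 10 of 12 abemaciclib tumours under the control median, Etv1 at -0.33 (SE 0.192), and Fosl1, an AP-1 subunit, at 0.98 (SE 0.493), the highest value of the list. Fosl1 ran from 0.770 CPM through 6.70 to 46.1 CPM in abemaciclib and from 1.17 through 5.89 to 12.5 CPM in control tumours, so that the group medians were close and 4 abemaciclib tumours lay above all control tumours. None of the genes in these 3 lists passed (smallest adjusted p = 0.398, for Fosl1, by edgeR). On library totals, where the median of all genes was -0.12, the PI3K-AKT-mTOR median turned to -0.077.

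**Figure D4:**
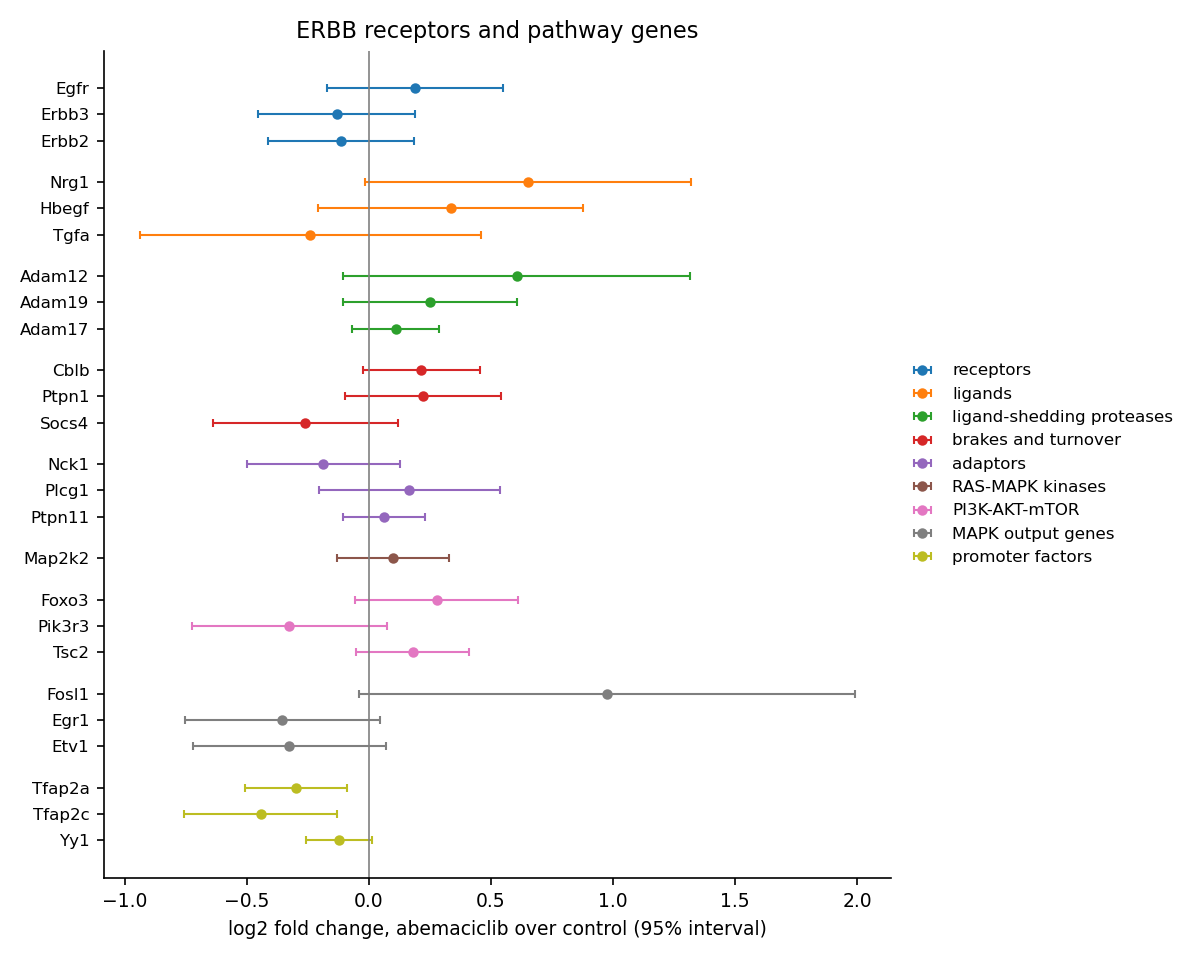
Log2 fold changes, abemaciclib over control, with 95% intervals from edgeR for the receptors, the tested ligands and up to 3 genes with the smallest p of each pathway list. The intervals of all receptors, ligands and signalling genes shown include 0, and those of Tfap2a and Tfap2c lie below it.

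Among factors known to act on the ERBB2 or ERBB3 promoters in human cells, the AP-2 genes had the smallest p. Tfap2c, which encodes AP-2 gamma, ran from 148 CPM through 418 to 515 CPM in abemaciclib tumours, against 404 through 548 to 658 CPM in control tumours. All 12 abemaciclib tumours were below the control median and 6 were below every control tumour, with tumour 9 lowest. Its log2 fold change was -0.44 (SE 0.152), with an unadjusted p of 0.00742 and an adjusted p of 0.184 by edgeR.

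Tfap2a, which encodes AP-2 alpha, ran from 256 CPM through 345 to 383 CPM in abemaciclib tumours, against 254 through 409 to 538 CPM in control tumours. Again 12 of 12 abemaciclib tumours were below the control median, though control tumour 8 was the lowest of all 23 tumours. The log2 fold change was -0.30 (SE 0.101), with an unadjusted p of 0.00654 and an adjusted p of 0.172 by edgeR. Limma-voom passed both genes (adjusted p = 0.0227 for Tfap2a and 0.0261 for Tfap2c, beside 4.34% of all genes called), and DESeq2 passed neither (0.116 and 0.115). Yy1, a factor reported to work with AP-2 at the human ERBB2 promoter, was at -0.12 (SE 0.0651, adjusted p = 0.433 by edgeR) and below the control median in 12 of 12. Over the 11 tested factors of this list 0 were called, 2 had an unadjusted p under 0.05 in the lower direction, against 5.81% of all genes, and the median was -0.062. Within groups Tfap2c had r of 0.766 with Egfr, -0.214 with Erbb2 and 0.578 with Erbb3, and Tfap2a had r of 0.398, 0.288 and 0.603 with the same receptors. Whether the groups differ in these relations was not tested. Tfap2c had r with Egfr of 0.883 among abemaciclib and 0.182 among control tumours, and with Erbb2 of -0.482 among abemaciclib and 0.134 among control tumours. Abemaciclib tumour 9 had the lowest Tfap2c and the lowest Egfr of all tumours, at 148 and 66.5 CPM. The r of Tfap2c with the receptors were not computed without it. On library totals r was 0.721 for Tfap2c with Egfr and 0.276 for Tfap2a with Erbb3.

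**Figure D5:**
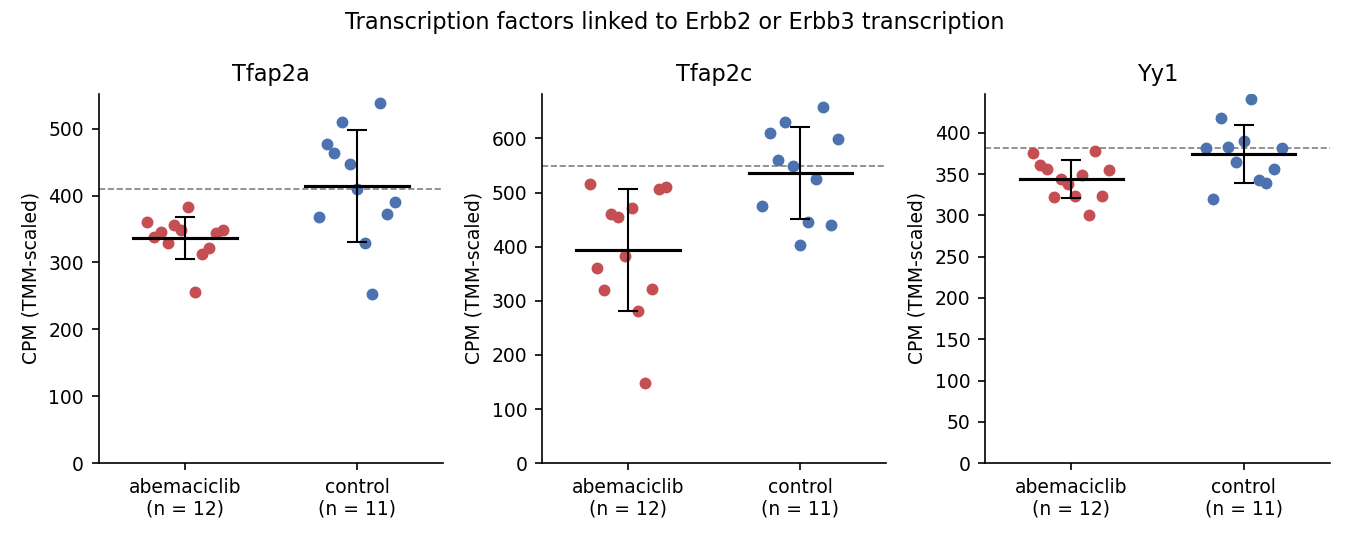
CPM of Tfap2a, Tfap2c and Yy1 in each tumour, with abemaciclib left of control, points as tumours, bars as mean and SD and the dashed line at the control median. All 12 abemaciclib tumours lie below that line in each panel. The share of all tested genes with every abemaciclib tumour on the same side of the control median was not counted. The panels show the 3 genes with the smallest p of 11 tested factors, of which 4 had positive log2 fold changes.

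For 28 other receptor tyrosine kinases tested, the median on the log2 scale was 0.15, with 21 positive, and 5 had an unadjusted p under 0.05 in the higher direction, against 7.59% of all genes. Those with the smallest p were Axl at 0.32 (SE 0.122), the collagen receptor Ddr2 at 0.60 (SE 0.242) and the macrophage receptor Csf1r at 0.45 (SE 0.182), with adjusted p of 0.214, 0.244 and 0.246 by edgeR. Of these, limma-voom passed Axl alone (adjusted p = 0.0362).

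Cell type markers were read beside the receptors. Luminal epithelial genes had a median of -0.023 over 10 tested genes, and their scores ran from -0.456 to 0.419 in abemaciclib and from -0.497 to 0.366 in control tumours. Lcn2 was at 0.56 (SE 0.240), Krt18 at 0.28 (SE 0.216) and Krt19 at -0.31 (SE 0.331). Without abemaciclib tumour 9, Krt18 was at 0.034 and Krt19 at -0.59. The macrophage list had 8 of 8 positive values and a median of 0.46, with scores from -0.141 to 0.709 in abemaciclib and -0.531 to 0.0722 in control tumours. Of its genes, 5 had an unadjusted p under 0.05 in the higher direction, against 7.59% of all genes. Csf1r and Mertk, both among these, were also counted among the receptor tyrosine kinases above. Msr1 was at 0.73 (SE 0.168), Fcgr3 at 0.69 (SE 0.188) and C1qa at 0.47 (SE 0.133), with adjusted p of 0.0578, 0.0912 and 0.111 by edgeR. The cell division list had 16 of 16 negative values and a median of -1.04. All 16 had an unadjusted p under 0.05 by edgeR, against 5.81% of all genes in the lower direction. Their scores ran from -2.34 to 1.29 in abemaciclib and from -0.339 to 1.84 in control tumours. Smc4 was at -0.84 (SE 0.181), Bub1b at -1.27 (SE 0.373), Foxm1 at -1.01 (SE 0.315) and Mki67 at -1.04 (SE 0.339). DESeq2 and limma-voom passed Msr1, Fcgr3, C1qa, Smc4 and Bub1b, with adjusted p from 0.00496 to 0.0401, while edgeR passed none of them. Foxm1 and Mki67 passed by limma-voom (adjusted p = 0.0111 each) and not by DESeq2. The other lists had medians of 0.75 for 7 basal epithelial genes (-0.21 without abemaciclib tumours 3 and 10), 0.32 for 13 fibroblast and matrix genes (0.071 without abemaciclib tumour 9), 0.098 for 8 endothelial genes, 0.31 for 6 lymphocyte genes, 0.58 for 4 adipocyte genes and -0.024 for 9 housekeeping genes. The part of these cell types in the receptor values was not tested.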

How the data were processed

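The authors deposited 1 table of raw counts, whole reads per amplicon with 1 short amplicon a gene and no normalization. Per the labels' protocols, total RNA from frozen tumours was amplified with an Ion AmpliSeq custom panel of 3826 genes. Per the submitters' processing notes the genome build is mm10. No source used here gives the aligner, the counting program or the amplicon positions. Reads of a receptor may therefore come from any part of its transcript, and PCR copies are counted.

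The tests ran in R 4.3.3, with edgeR 4.0.16 as the main tool. Of the panel, 2925 genes passed filterByExpr and 901 did not. TMM gave the scaling factors, and groups were compared with glmQLFTest, two-sided, with Benjamini-Hochberg adjustment over all tested genes at 0.05. The biological coefficient of variation was 32.6%. Among 253 pairs of libraries none agreed within sampling noise (lowest chi-square, per degree of freedom, 18.4). The fit was tested on simulated counts. Ratios, scores and correlations used log2 CPM with a prior count of 2 and permutation tests with 100000 resamples in numpy 2.4.6. A list score is the mean log2 CPM of its tested members, centred over the 23 tumours. Positions came from GENCODE M21 and upstream sequences from RefSeq (GRCm38.p6), where Egfr, Erbb2 and Erbb4 matched and Erbb3 had no entry.

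The receptors and gene lists were chosen with earlier results of these data known. Genes named are the receptors, the tested ligands, Mki67, up to 3 genes with the smallest p of each list, and the 5 highest and 3 lowest genes by likeness to each receptor. A pair of genes that this rule names is not reported here. Egf, Errfi1 and Mertk lie outside this rule and were named after their values were seen. Krt8, Epcam and Cdh1 also lie outside it and were named as luminal epithelial markers. Alternatives were other scalings and filters, DESeq2 1.42.0, limma 3.58.1 (voom), robust empirical Bayes, the tumour number as a block, other prior counts, another epithelial basis and leaving out tumours. No tumour was left out of the values reported first.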

Additional observations from a re-analysis of the deposited data

How the results depend on the processing

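Egfr, Erbb2 and Erbb3 kept their direction and stayed at an adjusted p above 0.05 in all alternatives run. Leaving out each tumour in turn gave log2 fold changes of 0.091 to 0.28 for Egfr, -0.18 to -0.049 for Erbb2 and -0.23 to -0.076 for Erbb3, and 0 pathway genes past the threshold each time. The number of panel genes past the threshold was 0 by edgeR and 0 to 47 without 1 tumour, 1 on library totals, 60 by DESeq2's Wald test, 127 by limma-voom and 97 without abemaciclib tumours 3 and 10. Of single tumours, leaving out abemaciclib tumour 10 gave 47, abemaciclib tumour 2 gave 30, abemaciclib tumour 3 gave 10 and control tumour 6 gave 9, abemaciclib tumours 5 and 9 gave 1 each, control tumours 1 and 5 gave 2 each, and any other gave 0. With the tumour number as a replicate block, Egfr was at 0.096, Erbb2 at -0.073 and Erbb3 at -0.14, with 0 genes past the threshold. Of 11 same-numbered pairs, 5 had correlated deviations above 0.1, in a range of -0.428 to 0.453. Pairs of unlike number were not compared, so whether the numbers pair the tumours is not known.

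Without 1 tumour the differences in log2 ratio ran from 0.22 to 0.37 for Egfr to Erbb3, 0.14 to 0.40 for Egfr to Erbb2 and -0.030 to 0.14 for Erbb2 to Erbb3, and relative to luminal epithelium from 0.055 to 0.32 for Egfr, -0.15 to -0.00031 for Erbb2 and -0.24 to -0.056 for Erbb3. Against keratins, Epcam and Cdh1, Erbb2 turned to 0.039. On library totals, calls were lost for Erbb3 with cell division in abemaciclib tumours (r = -0.624), Egfr with Erbb3 (0.757) and Egfr with cell division (-0.453) in control tumours, and signs turned for Erbb2 with Erbb3 (-0.473) and with cell division (0.321) in abemaciclib tumours and for Egfr (-0.066) and Erbb3 (-0.073) with fibroblast genes in control tumours. Without the 2 farthest tumours, Egfr with Erbb3 (0.801) and with cell division (-0.299) in control tumours lost their calls, while Erbb2 with fibroblast genes in abemaciclib (0.822) and with luminal genes in control tumours (0.825) passed (adjusted permutation p = 0.0485 each). Signs turned there for Erbb2 in abemaciclib tumours with Egfr (0.340), Erbb3 (-0.083) and cell division (0.099), and in control tumours for Egfr (-0.455) and Erbb3 (-0.206) with fibroblast genes. The cause was not tested.

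Among other genes, library totals turned Adam17 (-0.024), Ptpn11 (-0.058), Map2k2 (-0.035) and Pecam1 (-0.037). Krt14 turned by limma-voom (-0.36) and, without abemaciclib tumours 3 and 10, to -0.71, where Trp63 was at -0.17. Csf3 was at 0.0074 with DESeq2 size factors, 0.0071 by DESeq2's Wald test and -0.21 to 0.11 without 1 tumour, and Grb7 at -0.17 to 0.036. List medians close to 0 changed sign without 1 tumour for the luminal (-0.058 to 0.037), brakes (-0.067 to 0.0011), adaptor (-0.065 to 0.0077), RAS-MAPK (-0.075 to 0.0028) and housekeeping lists (-0.060 to 0.0072). Erbb4, Egf and Errfi1 had too few reads for a comparison in the filtered fit. Low transcript levels, depth and an inefficient amplicon cannot be told apart for them.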
